A study of Homo sapiens with 35 samples.

Results

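Lamina contacts of the histone and HLA clusters of human chromosome 6 were described in single cells of KBM7, a leukaemia cell line. The clusters were covered by 74 bins of 100 kb, of 26584 bins with a value in every cell. The bins were set by position in hg19, counted from 1. The rule uses no measured value, though it was written with earlier results of these data known. In order along the chromosome, the histone cluster took 19 bins (26000001 to 27900000) and the extended class I region 16 bins (27900001 to 29500000). HLA class I took 20 bins (29500001 to 31500000), class III 8 bins (31500001 to 32300000) and class II 11 bins (32300001 to 33400000). These 5 parts were compared with each other and with flanks of 2 Mb on either side, each of 20 bins. All of these bins held a value in every cell.

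The measurement was DamID, in which a bacterial adenine methylase (Dam) is fused to a protein, here lamin B1 of the nuclear lamina, and marks GATC sites in the DNA that comes near it. All cells were of KBM7 clone 5-5, given as diploid (2N), so every value comes from 1 clonal line. They shared the lamin B1 fusion, a 15 h induction with 0.5 nM Shield1, and a sort of the 2% smallest cells carrying both Fucci cell-cycle markers. The labels give 1 group of 35 samples and no control group. Without cells carrying unfused Dam, lamina contact cannot be told apart from differences in accessibility between regions, as far as the authors' expectation leaves these in. Of these, 32 had values and samples 12, 14 and 16 were not analysed here.

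The values are ratios of observed to expected reads (OE) per bin and cell. An OE of at least 1 was called a contact of that bin in that cell, and the contact share of a region was the percentage of its bins in contact in a cell. The cells held 985 to 258327 recovered reads, with a median of 120189. In the 29 deeper cells 1 read was worth an OE of 0.0934 to 0.601 in a typical bin. In the 3 shallow cells (13, 15 and 17, with at most 1755 reads) it was worth 13.6 to 24.7, so that any read there made a contact. The cells are diploid, and a contact can come from either copy of the chromosome and from any time in the 15 h. Nothing in the labels says that the cells came from separate cultures, so the tests over cells measure the spread between cells of this line.

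As background, the histone cluster holds the replication-dependent genes of the linker histone H1 and the core histones H2A, H2B, H3 and H4, which are transcribed mainly in S phase. The HLA region is the human major histocompatibility complex. Class I genes encode receptors that show peptides from inside the cell to cytotoxic T cells, and class II genes encode receptors that show peptides from outside the cell to helper T cells. Class III, between them, is dense in genes of complement, cytokines and other functions. Chromatin at the lamina is in general poor in genes and in transcription.

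The member genes were HIST1H1A, a linker histone gene (now H1-1), and HIST1H4L, a histone H4 gene (now H4C13), for the histone cluster. HLA-B and HLA-C, heavy chains of classical class I molecules, stood for HLA class I. HLA-DRA and HLA-DPB1, an alpha and a beta chain of class II molecules, stood for class II. The bins and the gene table at hand are of different builds, so the genes are named by part and not by bin, and the gene content of single bins was not checked. RefSeq (GRCh38.p14) lists 66 genes of chromosome 6 with an older HIST1H name, of which 55 are protein coding. Of these 66 genes, 8 are of type H1, 17 of H2A, 17 of H2B, 11 of H3 and 13 of H4.

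Gene order differs between the parts. Between H1-1 and H4C13, RefSeq lists 63 protein-coding genes, of which 48 are histone genes. The others include a run of butyrophilin genes (BTN3A2 to BTN1A1) that separates groups of histone genes. Between H4C13 and HLA-F, the first class I gene in this order, come 41 protein-coding genes. Of these, 16 are odorant receptor genes, a family expressed chiefly in the nose. The 41 genes begin with a few more histone genes, the odorant receptor genes OR2B2 and OR2B6, and a run of mostly zinc-finger genes (ZNF165 to ZSCAN23). The last 20 of the 41, after TRIM27, include 14 of the odorant receptor genes (OR2W1 to OR2H2). Of the 16 protein-coding genes between HLA-DRA and HLA-DPB1, 11 are class II HLA genes, and TAP1, TAP2, PSMB8 and PSMB9 serve the supply of peptides to class I.

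DamID reads arise only at GATC sites, so the promoter windows of the members are shown to let a reader see what the assay can read there. The windows are the 250 bases before the gene's start, from RefSeq (GRCh38.p14), and 5 of the 6 members had a window in the table (not HLA-DRA). The 4 windows printed are 5′ to 3′ along the gene, and capitals mark TATAAA and CCAAT or their reverse complements TTTATA and ATTGG (the matches shown do not overlap). They lie on the minus strand at chr6:26017788-26018037 (H1-1), chr6:27873535-27873784 (H4C13), chr6:31357180-31357429 (HLA-B) and chr6:31272093-31272342 (HLA-C).
H1-1: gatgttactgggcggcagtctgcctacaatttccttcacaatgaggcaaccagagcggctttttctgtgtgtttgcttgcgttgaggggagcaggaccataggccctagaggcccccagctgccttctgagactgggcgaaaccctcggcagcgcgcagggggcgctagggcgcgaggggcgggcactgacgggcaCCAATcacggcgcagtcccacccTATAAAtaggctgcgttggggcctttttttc
H4C13: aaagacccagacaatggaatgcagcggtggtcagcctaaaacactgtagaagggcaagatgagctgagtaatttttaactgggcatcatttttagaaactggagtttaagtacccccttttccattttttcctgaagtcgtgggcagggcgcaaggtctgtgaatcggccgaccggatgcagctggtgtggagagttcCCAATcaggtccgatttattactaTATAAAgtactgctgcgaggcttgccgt
HLA-B: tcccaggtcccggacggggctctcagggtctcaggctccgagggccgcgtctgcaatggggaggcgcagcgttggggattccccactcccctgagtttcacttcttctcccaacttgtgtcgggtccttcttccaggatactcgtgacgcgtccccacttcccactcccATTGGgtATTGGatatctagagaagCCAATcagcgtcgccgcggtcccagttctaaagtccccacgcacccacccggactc
HLA-C: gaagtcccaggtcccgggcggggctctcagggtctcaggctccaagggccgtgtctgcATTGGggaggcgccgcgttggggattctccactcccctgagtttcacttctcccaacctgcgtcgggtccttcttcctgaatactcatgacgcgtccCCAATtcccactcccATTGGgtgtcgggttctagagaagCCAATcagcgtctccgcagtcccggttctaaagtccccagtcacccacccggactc

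The motif GATC was in 0 of the 5 member windows, HLA-DPB1 included, while 35.8% of all 35116 promoter windows of this length held it. Among 54 windows of histone genes of the cluster, 9 (16.7%) held a GATC. Among listed genes, 0 of 8 class I windows, 5 of 16 class II windows and 1 of 10 class III windows held a GATC. A gene with several starts has several windows. Reads of a 100-kb bin that spans such a window thus start at other GATC sites of the bin. TATAAA or its reverse complement was in both histone windows shown and in 36 of the 54 histone windows (66.7%), against 10.7% of all windows. HLA-B and HLA-C had no match and HLA-DPB1 had 1. Among listed genes 1 of 8 class I windows, 4 of 10 class III windows and 3 of 16 class II windows held a match. CCAAT or its reverse complement was in 47 of the 54 histone windows (87.0%) and in 32.0% of all windows. HLA-B, HLA-C and HLA-DPB1 held 3, 4 and 2 matches. For listed genes, CCAAT or its reverse complement was in 6 of 8 class I, 10 of 16 class II and 1 of 10 class III windows. A match is a run of letters and not a measured binding site.

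The question of the main comparison was how the lamina contacts of these gene clusters differ along the chromosome. Contacts fell into patches in the upstream flank, the histone cluster and the extended class I region, and stopped at the start of HLA class I. No bin of HLA class I, class III, class II or the downstream flank was in contact in any of the 32 cells. The upstream flank was in contact in 24 cells, the extended class I region in 9 and the histone cluster in 7. For the other 4 regions, 0 of 32 cells allows a share of up to 9.38% of cells. Over the 29 deeper cells alone the limit is 10.3%, and both limits cover counting of cells only. Contacts in any cell were found in 12 of the 74 bins.

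**Figure D1:**
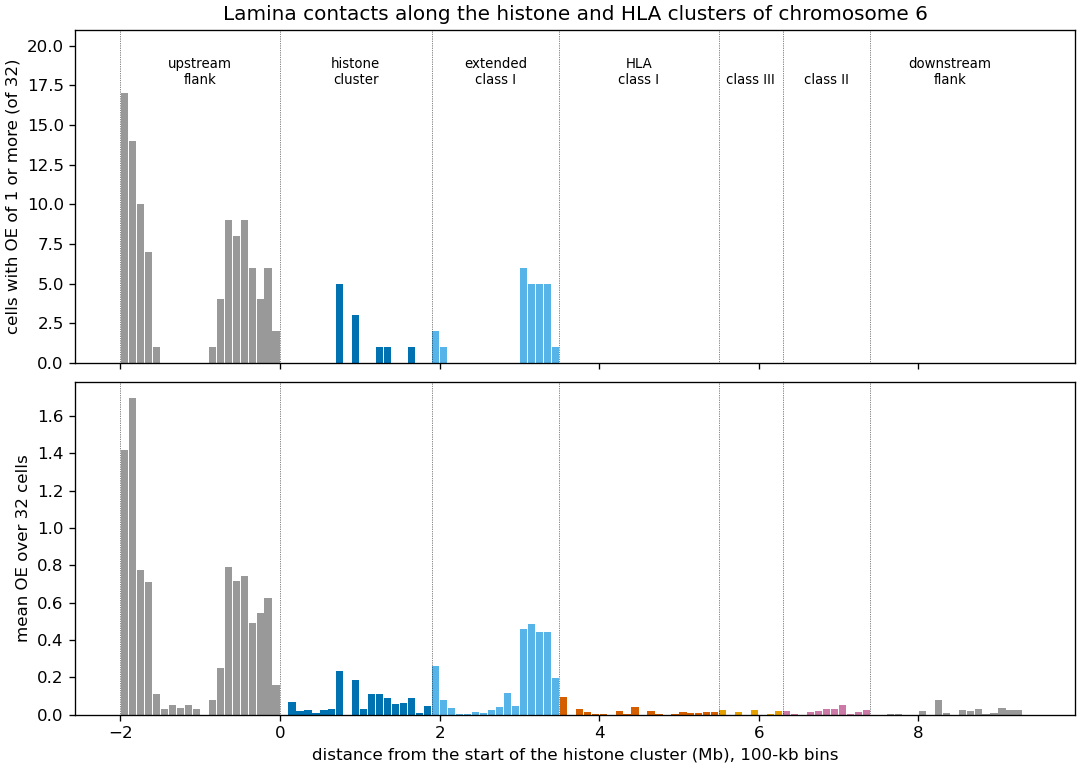
Number of cells in contact (upper panel, of 32) and mean OE over 32 cells (lower panel) for each 100-kb bin, against the distance from the start of the histone cluster in Mb. Dotted lines mark the starts of the regions, and colours tell the regions apart. Contacts form 2 groups of bins in the upstream flank, scattered bins in the histone cluster and a block at the end of the extended class I region, and no bin is in contact from HLA class I onwards.

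The contact share of the histone cluster was 0% in the lowest cell, 0% in the median cell and 15.8% in the highest, with a mean of 1.81% ± 3.92 (SD, n = 32 cells). In the extended class I region the lowest, median and highest cells had 0%, 0% and 43.75%, and the mean was 4.88% ± 10.0 (SD, n = 32). The upstream flank had 0%, 5% and 60%, with a mean of 15.3% ± 18.8 (SD, n = 32). The ranges of these 3 regions overlap, because each held cells without any contact. The same cells averaged 26.4% ± 8.10 (SD, n = 32) over the rest of the genome and 33.3% ± 11.0 over the rest of chromosome 6.

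**Figure D2:**
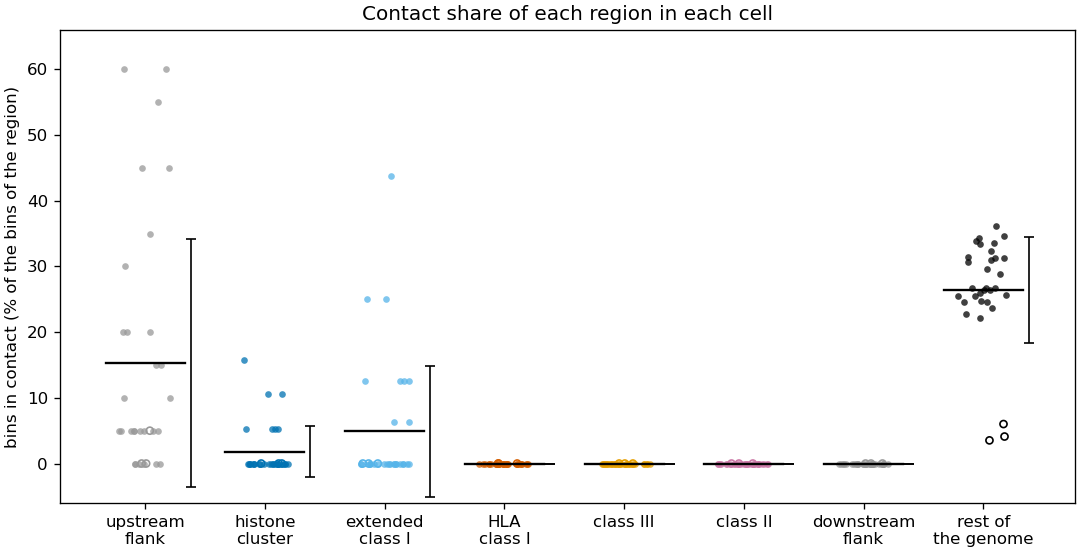
Contact share of each region in each of the 32 cells, as a percentage of the bins of the region, with the rest of the genome at the right. Points are cells (open circles are the 3 shallow cells), horizontal lines are means and bars are 1 SD. HLA class I, class III, class II and the downstream flank are at 0% in every cell, while single cells reach 60% in the upstream flank and 43.75% in the extended class I region.

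Within the same cells, the upstream flank was above the histone cluster by 13.5 percentage points (higher in 22 cells and lower in 2, adjusted p = 4.2e-05) and above the extended class I region by 10.4 points (higher in 21 and lower in 4, adjusted p = 0.000455). The test was a two-sided permutation test that flips the sign of each cell's difference (32 cells, 100000 resamples), adjusted by Benjamini-Hochberg over 21 pairs of regions, of which 14 passed. The size of the flank moved these values: with a flank of 4 Mb the differences were 35.8 and 32.7 points, and 1.13 in place of 0.402 for mean OE against the histone cluster. The extended class I region was above HLA class I by 4.88 points (95% interval 1.28 to 8.49, higher in 9 cells and lower in 0, permutation adjusted p = 0.00897). The histone cluster was above HLA class I by 1.81 points (95% interval 0.395 to 3.22, higher in 7 cells and lower in 0, permutation adjusted p = 0.0233). With HLA class I at 0 in every cell, no cell could be lower. The p-values against it thus rest on the number of cells with a contact and not on the size of the difference. Class III, class II and the downstream flank gave the same values as HLA class I, since all were at 0. Pairs among these regions could thus not pass, and the 14 pairs that passed hold the same differences more than once. Without the 10% of bins with fewest expected reads, the histone difference was 0.586 points with a permutation adjusted p of 0.698, and it did not pass. Bins without a read, whose expectation was not known, stayed in under this setting.

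The histone cluster and the extended class I region differed by -3.07 points (95% interval -6.40 to 0.249, histone cluster higher in 3 cells and lower in 8), and the permutation adjusted p of 0.092 missed the threshold. It passed without cell 28 (-3.51 points, adjusted p = 0.043) and without the 10% of bins with fewest expected reads (-4.62 points, adjusted p = 0.00815), while without cell 6 it shrank to -1.93 points (adjusted p = 0.178). Against the rest of the genome, each of the 7 regions with flanks of 2 Mb had a lower contact share. The difference was -24.5 points for the histone cluster (lower in 32 of 32 cells), -21.5 for the extended class I region (lower in 31) and -26.3 for HLA class I, class III and class II (lower in 32). The permutation adjusted p over 7 regions was 1.17e-05 for these parts, from an unadjusted p of 1e-05, the smallest that 100000 resamples can give. For the HLA classes, at 0 in every cell, the difference is each cell's own contact share elsewhere. Its sign and p followed from the lack of contacts and add nothing to it. For the upstream flank the difference was -11.0 points (lower in 25 cells and higher in 7, permutation adjusted p = 0.00275). It did not pass where any read counted as a contact (-3.63 points, adjusted p = 0.259), and an upstream flank of 4 Mb, tried after the data were seen, was above the rest by 11.3 points (adjusted p = 0.00655).

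Mean OE gave values also where no bin reached the contact limit. In the histone cluster it was 0 in the lowest cell, 0.0261 in the median cell and 0.563 in the highest, with a mean of 0.0629 ± 0.107 (SD, n = 32). The extended class I region had 0, 0.0470 and 1.57, with a mean of 0.166 ± 0.301 (SD, n = 32), and the upstream flank 0, 0.266 and 1.88, with a mean of 0.465 ± 0.489. Cell 6, the highest in the extended class I region, was the only cell with a mean OE above 1 in any of the 5 parts. HLA class I had 0, 0.00574 and 0.0891, with a mean of 0.0149 ± 0.0219 (SD, n = 32). Class III had 0, 0 and 0.0687, with a mean of 0.0117 ± 0.0210, and class II 0, 0.0141 and 0.0951, with a mean of 0.0191 ± 0.0236 (SD, n = 32 each). The downstream flank, at 0.0146 ± 0.0224, lay in the same range, and the rest of the genome had a mean of 0.938.

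**Figure D3:**
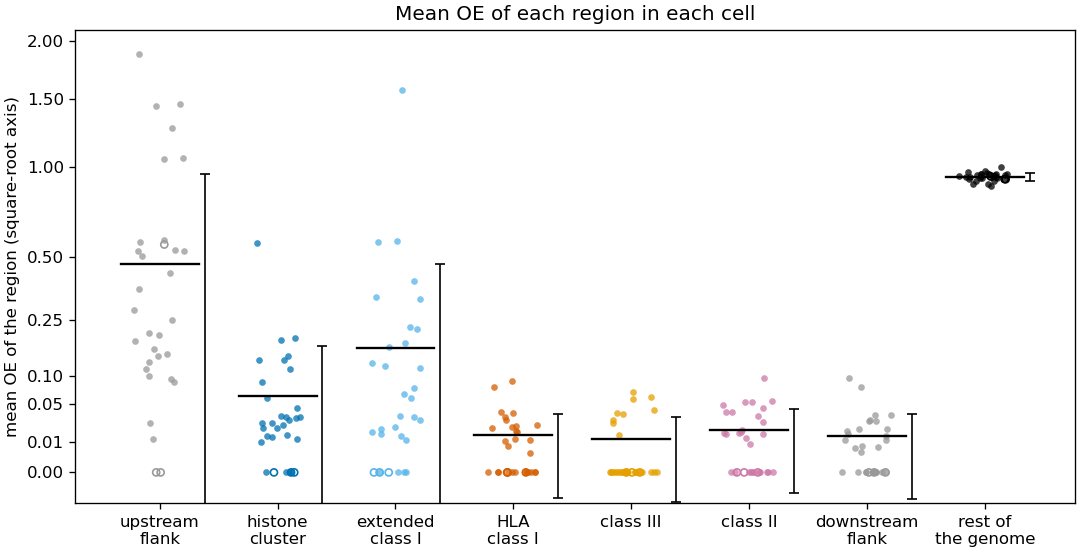
Mean OE of each region in each of the 32 cells on a square-root axis, with the rest of the genome at the right. Points are cells (open circles are the 3 shallow cells), horizontal lines are means and bars are 1 SD, drawn down to the lower end of the axis where the mean minus 1 SD lies below it. HLA class I, class III and class II stay under an OE of 0.1 in every cell, and the rest of the genome is near 0.938.

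By mean OE the histone cluster was above HLA class I by 0.0480 (95% interval 0.00891 to 0.0871, higher in 20 cells and lower in 6, permutation adjusted p = 0.00242). Without cell 19 this difference was 0.0317 (adjusted p = 0.00457). The extended class I region was above HLA class I by 0.151 (95% interval 0.0433 to 0.259, higher in 23 cells and lower in 3, permutation adjusted p = 5.25e-05). Between the histone cluster and the extended class I region the difference was -0.103 (95% interval -0.206 to 0.000515, histone cluster higher in 7 cells and lower in 20, permutation adjusted p = 0.0205). Without cell 6 it was -0.0595 (adjusted p = 0.0391). It missed the threshold with deeper cells thinned to equal reads (-0.0974, adjusted p = 0.0807) and with the limits of each part moved inwards by 2 bins (-0.0681, adjusted p = 0.106). In all, 15 of 21 pairs passed by mean OE.

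The 3 HLA classes, which hold HLA-B and HLA-C, the class III genes, and HLA-DRA and HLA-DPB1 in turn, did not differ past the threshold by mean OE. Class I minus class III was 0.00325 (95% interval -0.0077 to 0.0142, permutation adjusted p = 0.601). Class I minus class II was -0.00421 (95% interval -0.0132 to 0.00474, permutation adjusted p = 0.432), and with limits moved inwards by 2 bins it was -0.0101 and passed (adjusted p = 0.022). Class III minus class II was -0.00746 (95% interval -0.0201 to 0.00515, permutation adjusted p = 0.31). These intervals leave room for differences near the size of the means themselves. The downstream flank differed from HLA class I by 0.000336 (class I minus flank, 95% interval -0.00845 to 0.00912, permutation adjusted p = 0.94), and the sign turned when cell 4, 5, 6, 21, 22 or 23 was left out (from -0.00161 to 0.00262 over all cells left out in turn).

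The reads behind these values were few. HLA class I had 61 reads over all 32 cells where 3102 were expected from the genome's average, a ratio of 0.0197 (95% exact Poisson interval 0.0150 to 0.0253). Class III had 19 of 1198 (ratio 0.0159, interval 0.00955 to 0.0248) and class II 43 of 1769 (ratio 0.0243, interval 0.0176 to 0.0327). The histone cluster had 177 of 2749 (ratio 0.0644, interval 0.0552 to 0.0746) and the extended class I region 493 of 2573 (ratio 0.192, interval 0.175 to 0.209). The intervals of the 3 HLA classes overlap, and those of the histone cluster and the extended class I region lie above them. In bins without a read the expectation was not known and was set to the genome's median. These were 4 of 20 bins in HLA class I, 3 of 8 in class III and 1 of 11 in class II. In the histone cluster they were 2 of 19, and in the extended class I region 0 of 16. PCR copies reads, so these intervals cover counting error only, and they do not cover this assumption.

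Bin by bin, the number of cells in contact was set against the cells' own contact shares, which give 8.42 cells for a bin on average. By the Poisson-binomial test, exact and two-sided with Benjamini-Hochberg adjustment over 26584 bins, 69 of the 74 bins were in contact in fewer cells than that, beside 54.5% of all bins. None of the 74 was in contact in more cells, beside 30.3% of all bins, and the count was 0 also without adjustment, since the highest number of cells of any of them was 6. The bins called less often were 18 of 19 in the histone cluster, 12 of 16 in the extended class I region and all 39 of the HLA classes (adjusted p = 0.000146 for each bin at 0 cells). In the flanks they were 9 of 20 upstream, where 1 bin was in contact more often, and 20 of 20 downstream. A bin at 0 cells is common in this table, as 42.0% of all bins and 35.6% of those of chromosome 6 were in contact in no cell.

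**Figure D4:**
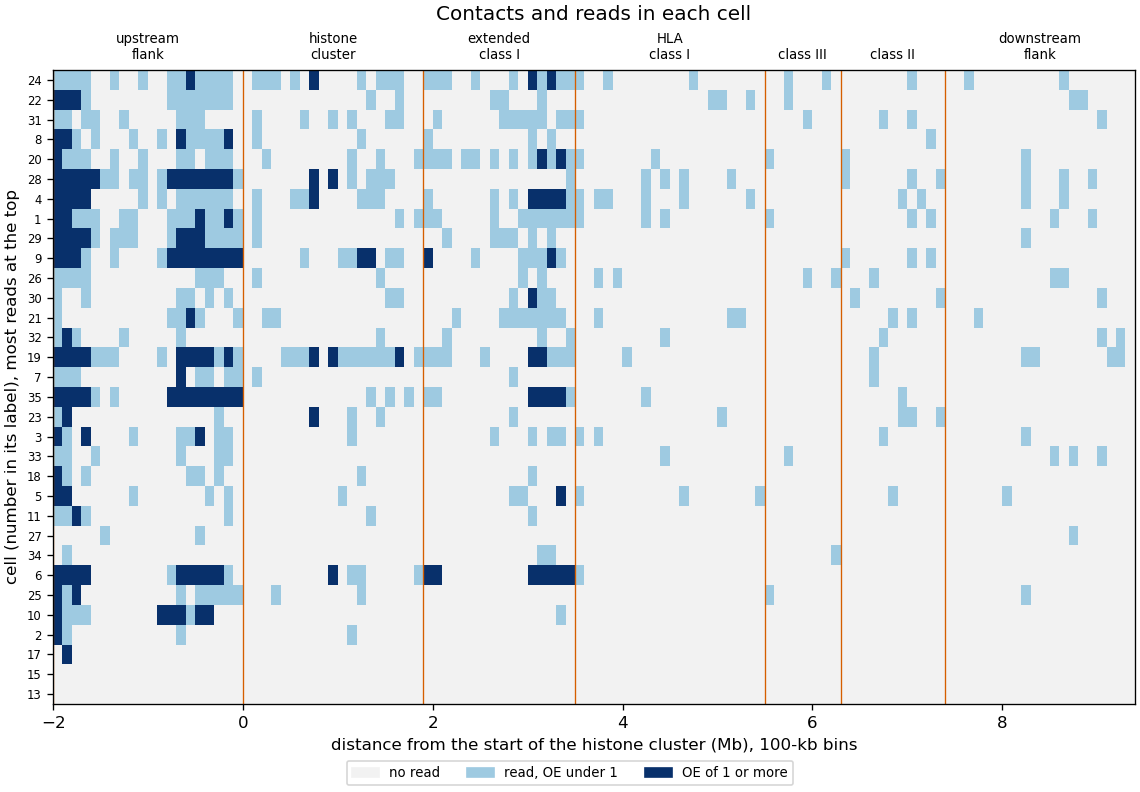
Reads and contacts in each cell (rows, numbered as in the labels, with the most reads at the top) and 100-kb bin (columns), against the distance from the start of the histone cluster in Mb. Light grey is no read, light blue a read with an OE under 1 and dark blue an OE of 1 or more. Contacts stack in the same blocks of bins in different cells, and light blue bins are scattered across the HLA classes in 23 cells.

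In the histone cluster, which HIST1H1A and HIST1H4L stand for, 11 contacts were counted over all bins and cells. Bin 26700001 to 26800000 was in contact in 5 cells (4, 19, 23, 24 and 28) with a mean OE of 0.236 ± 0.576 (SD, n = 32). Bin 26900001 to 27000000 was in contact in 3 cells (6, 19 and 28) with a mean OE of 0.186 ± 0.570. These 2 bins hold 8 of the 11 contacts, yet their expected reads are 0.108 and 0.263 of the genome's median. They had 6 and 10 reads over all cells, and a contact in the first rested on 1 or 2 reads and in the second on 1 to 4.

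The other histone contacts were in bins of ordinary expectation. Cell 9 was in contact at 27200001 to 27300000 with an OE of 1.36 (12 reads) and at 27300001 to 27400000 with 1.24 (10 reads). Cell 19 was in contact at 27600001 to 27700000 with 1.33 (7 reads). The 16 bins of the cluster not placed in the lowest 10% by expected reads thus held 3 contacts in 2 cells, at a mean OE of 0.0466 ± 0.0724 (SD, n = 32). These 16 include the cluster's 2 bins without a read, whose expectation was not known. By mean OE the histone cluster stayed above HLA class I in the other settings tried on the linear scale, by 0.0310 to 0.0616 (permutation adjusted p at most 0.0195), and by 0.36 as log2 of the mean OE plus 0.1 (adjusted p = 0.00203). Cell 19 had the highest share of the cluster in contact, 3 of 19 bins with 39 reads, and it lay apart from the next cell by mean OE, at 0.563 against 0.194 in cell 9. Among the cluster's 14 bins in contact in no cell, 9 had a mean OE above 0.0218, the median of all 11165 bins of the genome in contact in no cell. By definition, as many of all such bins lie above that median as below it, so this count is not read as a trait of the cluster.

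In the extended class I region contacts were concentrated at its end. The last 5 bins (29000001 to 29500000) held 22 of the region's 25 contacts, in 9 cells, with a mean OE of 0.404 ± 0.789 (SD, n = 32). The other 11 bins held 3 contacts in cells 6 and 9, with a mean OE of 0.0575 ± 0.0916. These 5 bins were picked out after their values were seen, so the contrast has no test.

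Within the block from 29000001 to 29400000, each bin was in contact in 5 or 6 cells. Bin 29000001 to 29100000 was in contact in 6 cells (4, 6, 19, 24, 30 and 35) at a mean OE of 0.457 ± 0.765 (SD, n = 32), with 9 to 13 reads behind a contact. Bin 29100001 to 29200000 was in contact in 5 cells (4, 6, 19, 20 and 35) at 0.486 ± 1.18, and its highest value, 6.10 in cell 6, was the highest of the 5 parts. Bins 29200001 to 29300000 and 29300001 to 29400000 were each in contact in 5 cells, at 0.440 ± 0.841 and 0.440 ± 0.767. These 4 bins were not called by the Poisson-binomial test (adjusted p = 0.464 for the first and 0.246 for the others), so the difference of their 5 or 6 cells from the 8.42 cells of an average bin missed the threshold. In bin 29400001 to 29500000 only cell 6 was in contact, with an OE of 3.55 from 16 reads.

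Cells differed in how much of the extended class I region was in contact. Cell 6 had 7 of the 16 bins in contact with 87 reads, in a library of 80576 reads. Cells 4 and 35 had 4 bins each, with mean OE of 0.567 and 0.575, and cells 9, 19, 20 and 24 had 2 each. Cells 5 and 30 had 1. Leaving out any 1 cell kept the difference from HLA class I between 3.63 and 5.04 points (permutation adjusted p at most 0.0164). At the other end of the region, bin 27900001 to 28000000 was in contact in cells 6 and 9 at a mean OE of 0.260 ± 0.727 (SD, n = 32).

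The change to HLA class I was gradual in OE and complete in contacts. The last bin of the extended class I region had a mean OE of 0.198 ± 0.646 (SD, n = 32) and 10 cells with a read. The first bin of HLA class I (29500001 to 29600000) had 0.0927 ± 0.219 and 8 cells with a read, and the next bin had no read in any cell. That first bin held 23 of the 61 reads of HLA class I, and without it the part had a mean OE of 0.0108 ± 0.0147 (SD, n = 32). Its highest value, 0.947 in cell 5 from 4 reads, lay just under the contact limit and was the highest of all 39 bins of the HLA classes.

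Inside the HLA classes the reads were sparse and scattered. Of 1248 combinations of bin and cell, 78 held a read and 49 of those held exactly 1. Within HLA class I, the part of HLA-B and HLA-C, 17 of 32 cells had a read. In class II, the part of HLA-DRA and HLA-DPB1, 18 cells had a read, and in class III 9. The bin with the highest mean OE of class II was 33000001 to 33100000, at 0.0504 ± 0.111 (SD, n = 32) with 12 reads in 7 cells. In class III it was 31900001 to 32000000, at 0.0255 ± 0.102 with 6 reads in 2 cells. Bins 29600001 to 29700000, 31600001 to 31700000 and 32500001 to 32600000 were among the 8 HLA bins without a read in any cell.

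Even among bins that were in contact in no cell, the HLA bins lay low. Their median of mean OE was 0.0129, against 0.0218 over all such bins of the genome, and 29 of the 39 lay at or under that genome median. Bins without a read in any cell were 20.5% of the HLA bins and 10.8% of all bins in contact in no cell. Low values were not particular to the HLA bins. The downstream flank, also in contact in no cell, had a lower median of 0.00585, and 7 of its 20 bins had no read. These counts are a description of the bins and not a test. The number of HLA bins with a read followed the depth of the cells (Pearson's r = 0.65 between their share and log10 reads over the 29 deeper cells, and 0.92 for the rest of the genome).

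The stretch without any contact ran on past class II. From 29500001 to 38300000, 88 adjacent bins (8.8 Mb) were in contact in no cell, and the HLA classes made up 39 of them. The other 49 bins of the stretch had a mean OE of 0.0166 ± 0.0183 (SD, n = 32), near that of the HLA classes together (0.0154 ± 0.0154). After the clusters, the nearest bin in contact in any cell was 38300001 to 38400000 (1 cell, 4.9 Mb away). The nearest in contact in at least 20% of cells was 44800001 to 44900000 (9 cells, 11.4 Mb away) and in at least 80% 48300001 to 48400000 (27 cells, 14.9 Mb away).

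Before the clusters, contacts came closer. Bin 25900001 to 26000000, which adjoins the histone cluster, was in contact in 2 cells at a mean OE of 0.158, and the first bin of the histone cluster had no read in any cell. The nearest bin in contact in at least 20% of cells was 25500001 to 25600000 (9 cells, 0.4 Mb away) and in at least 80% 19100001 to 19200000 (26 cells, 6.8 Mb away). At its start the upstream flank held bins from 24000001 to 24400000 with 7 to 17 cells per bin. They continue a stretch before the flank, where 18 bins from 22200001 to 24000000 were in contact in 15 to 25 cells each. The flank also held a block from 25200001 to 26000000, with 2 to 9 cells per bin. The flank's bin in contact in most cells was 24000001 to 24100000 (17 cells, mean OE of 1.42 ± 1.30, Poisson-binomial adjusted p = 0.00236), the only bin called more often in either flank of 2 Mb or the 5 parts.

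Contacts in the different patches were often of the same cells. All 7 cells with a contact in the histone cluster also had one in the upstream flank, as did 8 of the 9 with a contact in the extended class I region. Cell 30 was the exception. Cells 4, 6, 9, 19 and 24 had contacts in both parts, which is 5 of the 7 and 5 of the 9. The upstream flank alone was in contact in 14 further cells. Over the 29 deeper cells, mean OE of the upstream block ending at 26000000 and of the block from 29000001 to 29400000 correlated at r = 0.50. By contacts, these blocks had 13 and 9 cells, of which 5 were the same. Over all pairs of such blocks in these regions, some of them single bins, r ran from -0.00959 to 0.868. These values describe points that share library and depth. Since 24 of 32 cells had a contact in the upstream flank, the sharing of cells carries no test here.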

How the data were processed

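Single-cell DamID of lamin B1 was taken from 1 table that the authors deposited, whose values are ratios (OE, observed reads over expected reads) with a column per cell and a row per 100-kb bin, per the file headers. Per the submitters' processing notes, cutadapt, Bowtie2 2.1.0 and hg19 were used. The making of the expectation and the handling of duplicates are not given in the sources. The table has 30376 bins, and 26584 of them with values for all cells were used. Whole reads were recovered from the steps of the values within a bin (tolerance 0.01 reads), and 535 bins whose reads shared a factor were rescaled. Expected reads of a bin are its recovered expectation scaled to each cell's reads, with the genome's median for bins without a read.

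Contact share and mean OE per cell were compared between regions with sign-flip permutation tests (numpy 2.4.6, scipy 1.17.1, Python 3.11.15), and bins with a Poisson-binomial test over the whole table, all at a threshold of 0.05. The scripts were tested on simulated data. Differences have 95% intervals from the spread over cells. Besides the main setting, 13 others were tried. Bins were named by rule: in each region up to 6 with most cells in contact, or, with no contact, the highest and lowest by mean OE, and the nearest bins outside in contact in any cell, 20% or 80% of cells. The members, gene lists and regions were chosen with earlier results of these data known. Gene names, order and promoter windows are from RefSeq (GRCh38.p14).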

Additional observations from a re-analysis of the deposited data

How the results depend on the processing

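Of 120 differences recomputed under other settings, 108 kept both sign and call, and of 55 counts, 51 stayed within 1.5 times of the reported one, though 18 were not equal to it. Some of the 120 could not change. The size of the flanks does not enter a difference between parts, and moving the limits of the parts inwards left the flanks as they were. Without the 10% of bins with fewest expected reads, 11 pairs of regions differed in contact share in place of 14, and with thinned cells 13 pairs differed in mean OE in place of 15. Where any read counted, 6 of 7 regions passed the test below the rest of the genome. The number of the 74 bins in contact in at least 1 cell, 12 at an OE limit of 1, was 25 at a limit of 0.5, 7 at a limit of 2, 18 after thinning and 64 where any read counted. At a limit of 2, 6 of 21 pairs of regions differed in contact share in place of 14, and neither the histone cluster (0.164 points above HLA class I, adjusted p = 1) nor the extended class I region (1.95 points, adjusted p = 0.239) passed. The histone cluster and the extended class I region differed in contact share at a limit of 0.5 (adjusted p = 0.0284) and with any read (-9.65 points, adjusted p = 0.00321). HLA class I minus class III in mean OE turned to -0.00316 with deeper cells thinned to 40279 reads (adjusted p = 0.793). The contact share of the upstream flank minus that of the rest of the genome, -11.0 points, turned to 11.3 with a flank of 4 Mb, an alternative added after the data were seen. The longer flank takes in 18 bins in contact in 15 to 25 cells each. The cause of the other changes was not tested. All p-values here are from the permutation tests over cells. At a limit of 0.5, 5 combinations of bin and cell of the HLA classes were in contact, in 4 bins.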
